A study of Mus musculus with 16 samples.

Results

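The comparison described here is between whole testes of Emi2 knockout mice and wild-type mice at postnatal day 21 (P21), taken by sample title, with 2 arrays per genotype, so 4 of the 16 arrays of the series. By the labels the genotypes are EMI2_ko and wild type, both of strain C57BL/6, and the allele, and whether an array holds 1 animal or a pool, are not given in the sources used here. The other 12 arrays hold the same 2 genotypes at P15, P30 and P60 and are used where the P21 difference is set beside another age. The youngest age is P15 in the titles and age labels and p12 in the growth protocol, and P15 is used. Biotinylated cRNA was hybridised to Illumina bead arrays, where the brightness of the beads that carry a given oligonucleotide probe stands for the level of 1 transcript. Whether both arrays of a genotype come from different mice is not stated, so a p-value here covers the spread between arrays and that spread may be technical.

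Emi2 binds and blocks the anaphase-promoting complex, a ubiquitin ligase that marks cyclin B and securin for destruction so that chromosomes can part, and it is best known for holding the vertebrate egg in its second meiotic division. By its title, the series concerns its role in the male germ line of the mouse. In young mice the first germ cells enter meiosis nearly in step, so that the germ cell types present in the testis change from week to week, from spermatogonia through spermatocytes to haploid spermatids. RNA of a whole testis mixes all of these with Sertoli, Leydig and other somatic cells, and fewer cells of a type and less RNA per cell cannot be told apart in it.

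The gene names of the probe table were not borne out by the levels, so results are given by probe identifier, used as a row label that may itself be joined to the wrong values, and no gene is named as changed. On both P21 wild-type arrays, 35 of 72 probes with the name of a ribosomal protein, needed in every cell, were detected (48.6%). The same held for 629 of 1154 named for olfactory receptors (54.5%) and for 13484 of all 25689 regular probes (52.5%). Probes named for markers of germ, somatic and blood cell types of the testis were detected in 41 of 70 cases (58.6%). Of the 49 that could be tested, 0 passed in either direction (limma), against 5.0% of all tested probes. An unadjusted p under 0.05 was found for 4 of them, against 2901 of all 17355 tested probes. The tissue label and the genotype label could therefore not be checked against marker genes. Emi2 is encoded by Fbxo43, and the probe under that symbol had log2 values of 9.33 and 9.79 in P21 knockout testes and 9.31 and 9.84 in P21 wild-type testes, overlapping groups (limma adjusted p = 0.987). The same probe was lower in knockout at P30, with a log2 difference of -1.28 (limma adjusted p = 0.000552), and at P60, with -0.96 (limma adjusted p = 0.00239). As the name is not borne out, none of these values checks a genotype label. Of the paralog Fbxo5, the probe under that symbol was not well above background on any P21 array.

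All levels below are the log2 values normalized by the authors, which include the background of the array. Background sits near 7.3 on this scale, since the lowest value of a probe detected above background (detection p under 0.05) was 7.34 and 7.31 on the 2 knockout arrays and 7.32 on each wild-type array. Differences of dim probes are therefore understated. Knockout and wild-type arrays had 14053 and 14630 against 14508 and 14498 detected regular probes, and median signals before normalization of 181.9 and 181.0 against 181.3 and 150.5. A probe was tested if it was detected on at least 2 of the 16 arrays, and 17355 of 25689 regular probes were.

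The P21 arrays were first compared as wholes. The position of each array was computed along the line that leads from the mean P15 wild-type profile, set to 0, to the mean P60 wild-type profile, set to 1, so that no P21 array entered the line itself. Knockout testes stood at 0.406 and 0.275 and wild-type testes at 0.588 and 0.476. Both knockout arrays lay below both wild-type arrays, but the nearest pair, knockout replicate 1 and wild type replicate 2, was closer together than the 2 arrays of either genotype. An exact permutation test of 2 against 2 arrays cannot go below p = 0.333, so no test is given. Within each genotype replicate 1 stood farther along the line than replicate 2.

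The positions were also computed over parts of the probes. Over probes higher by a log2 difference of at least 1 at P60 than at P15 in wild type, knockout arrays stood at 0.342 and 0.246 and wild-type arrays at 0.567 and 0.483, with no overlap. Over probes lower by at least 1 in the same comparison they stood at 0.550 and 0.337 against 0.629 and 0.459, and the groups overlapped. Without the probes that passed the test at P21, the positions were 0.516 and 0.348 in knockout and 0.592 and 0.467 in wild type, and the groups overlapped there too. Leaving out the probes with the clearest P21 difference had to bring the genotypes closer, so this last set of positions is only a description. These 3 probe selections were chosen after the data were seen.

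**Figure D1:**
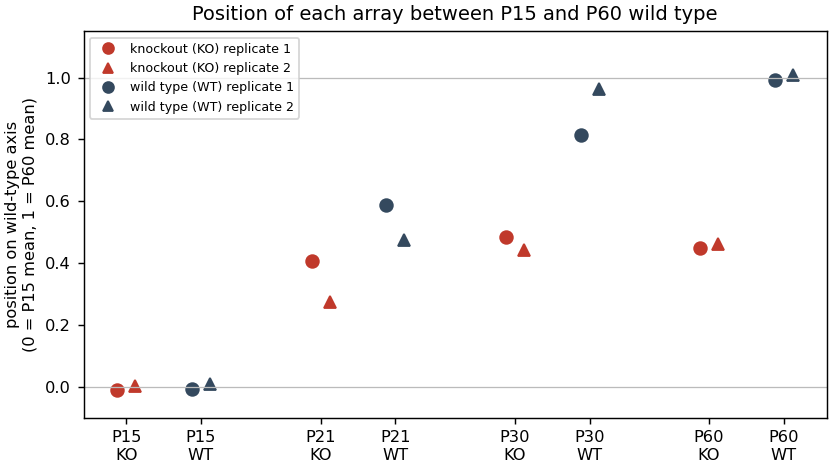
Position of each of the 16 arrays (vertical axis, no unit, 0 at the P15 wild-type mean and 1 at the P60 wild-type mean) by age and genotype (horizontal axis), with circles for replicate 1 and triangles for replicate 2. At P21 the knockout arrays sit at 0.406 and 0.275, below the wild-type arrays at 0.588 and 0.476, while the P15 arrays of both genotypes lie near 0.

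Distances to the mean profiles of other ages were also measured. The root-mean-square (RMS) log2 difference from the P30 knockout mean was 0.290 and 0.428 for the knockout arrays and 0.466 and 0.461 for the wild-type arrays. From the P30 wild-type mean it was 0.866 and 0.945 for the knockout arrays and 0.581 and 0.675 for the wild-type arrays. From the P15 wild-type mean it was 0.831 and 0.607 for knockout and 0.942 and 0.789 for wild type, where the groups overlapped. All 4 arrays were nearer to the P30 knockout mean than to the P30 wild-type mean, and the wild-type arrays were nearer to the P30 wild-type mean than the knockout arrays were. Between replicates the RMS difference was 0.357 for knockout and 0.314 for wild type, and between genotypes it ran from 0.411 to 0.565 over the 4 pairings of arrays.

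Probe by probe, more probes passed as lower than as higher in knockout testes at P21, and the lower ones differed by more. Of 17355 tested probes, 630 (3.63%) were lower and 238 (1.37%) higher in knockout in a limma model of all 16 arrays with Benjamini-Hochberg adjustment, and 2901 had an unadjusted p under 0.05. Of the lower probes, the size of the log2 difference reached 1 for 423, 2 for 148 and 4 for 10, and their median log2 difference was -1.29. Of the higher probes it reached 1 for 25 and 2 for 0, with a median of 0.63. These sizes depend on the background in the values, since after normexp background subtraction the difference reached 1 for 710 of 744 lower and 100 of 146 higher probes. Over all tested probes the median was 0.05. These medians describe probes that were chosen by the same test, so no test is attached to them.

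Agreement between single arrays was asked for as well. Both knockout arrays lay below both wild-type arrays for 2635 tested probes (15.2%) and above both for 4609 (26.6%), so the more frequent direction among all probes was higher in knockout, by small amounts. When a log2 difference of at least 1 was asked for in each of the 4 pairings of a knockout with a wild-type array, 285 tested probes were lower and 10 higher, of which 284 and 9 were among the 630 and 238.

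The number of probes that passed moved with single arrays. Leaving out 1 array leaves a genotype with 1 array at P21, which is then assumed to vary like the other groups. The probes on the lists changed as well, and whichever array was left out, a smaller share of the higher than of the lower probes remained. The least of both lists remained without wild type replicate 1. With normexp, 577 of the 630 and 109 of the 238 remained.

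**Figure D2:**
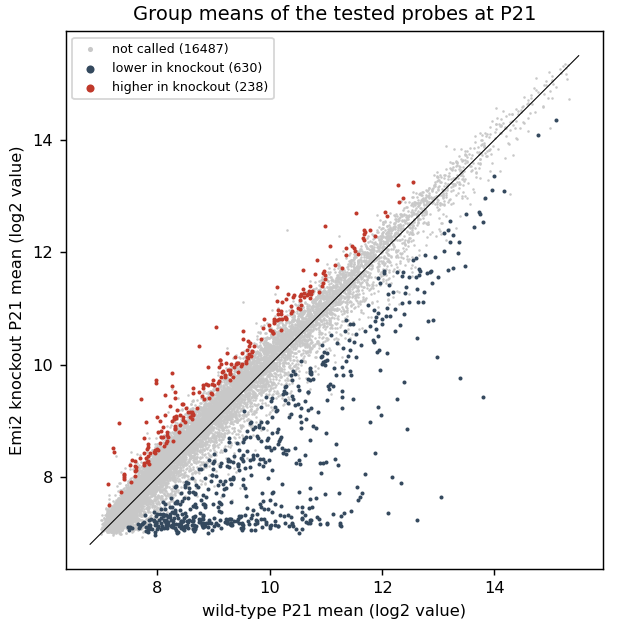
Mean log2 value of each tested probe in P21 knockout testes (vertical axis) against P21 wild-type testes (horizontal axis), with the line of equality. Colours mark the 630 probes lower and the 238 higher in knockout, and many of the lower probes lie along the bottom, near background, across a wide range of wild-type levels.

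Part of the lower probes were at background in knockout. All 630 were detected on both wild-type arrays, whereas in knockout 199 were detected on neither array, 43 on 1 and 388 on both. The 199 had a median log2 value of 7.16 in knockout and 8.65 in wild type, and 157 of them were detected on 0 of the 4 P15 arrays. The 388 that stayed detected had a median of 8.78 in knockout and 10.40 in wild type, and 48 of them were detected on 0 of the 4 P15 arrays. At P30 the median of the 199 was 7.23 in knockout and 11.02 in wild type, and 126 of them were detected on none of the later knockout arrays. The 388 had medians of 9.08 in knockout and 11.18 in wild type at P30, and 0 of them were undetected on all later knockout arrays. The lower probes undetected in P21 knockout were thus mostly undetected in both genotypes at P15, which choosing them as undetected favours. Of all 17355 tested probes, 2175 were detected on neither P21 knockout array and 1798 on 0 of the 4 P15 arrays.

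Detection in 1 genotype alone was also lopsided, in large part through the probes that passed. Over all tested probes, 483 were detected on both wild-type arrays and neither knockout array, and 246 on both knockout arrays and neither wild-type array. Those on in wild type alone reached a log2 value of 12.62 with an upper quartile of 8.46, and 73 of them averaged at least 9. Those on in knockout alone had an upper quartile of 7.43, close to background, and a highest mean of 8.51. Of the 483, 199 passed as lower, against 3.63% of all tested probes, and of the 246, 4 passed as higher, against 1.37%. Both sets were picked on the same P21 arrays that the test used. That choice itself favours such calls, so these shares are only a description.

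The 10 probes with the largest falls show how deep the loss went. ILMN_1225334 had log2 values of 7.78 and 7.50 in knockout testes (SD 0.2) and 13.35 and 12.76 in wild-type testes (SD 0.42). The log2 difference was -5.42 ± 0.18 (limma SE, n = 2 each, limma adjusted p = 1.61e-08) or 42.7-fold. This SE shares the spread over all 8 groups and is not the spread of the P21 arrays alone. The probe was detected in both genotypes at P15, at means of 7.51 in knockout and 7.49 in wild type. ILMN_3152486 had 7.18 and 7.29 in knockout, not well above background, and 12.69 and 12.55 in wild type, which made the knockout level at least 39.2-fold lower (limma adjusted p = 1.21e-08). At P30 it averaged 8.32 in knockout and 12.87 in wild type.

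ILMN_2638558 had values of 7.40 and 7.31 in knockout, detected on 1 of 2 arrays, against 12.38 and 11.83 in wild type (log2 difference -4.75, limma adjusted p = 1.74e-08). ILMN_2928453 had 8.02 and 7.75 in knockout against 12.64 and 12.02 in wild type (log2 difference -4.45, limma adjusted p = 1.15e-07). In wild type, ILMN_2638558 averaged 12.11 at P21 and 12.99 at P60, and ILMN_2928453 averaged 12.33 at P21 and 12.16 at P60. The knockout averages at P60 were 8.07 and 7.74, still far below.

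ILMN_1217767 was the brightest of the 10 and kept the highest knockout signal, with 9.92 and 8.92 in knockout and 14.06 and 13.53 in wild type (log2 difference -4.37, limma adjusted p = 5.59e-06). ILMN_1220305 had 8.14 and 7.85 in knockout and 12.55 and 11.79 in wild type (log2 difference -4.18, limma adjusted p = 1.43e-06). In both probes the 2 arrays numbered 1 were the higher ones of their genotype.

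Another 3 probes were not well above background on either knockout array. ILMN_2630078 had 7.05 and 7.19 in knockout and 11.70 and 10.85 in wild type, so its knockout level was at least 15.4-fold lower (limma adjusted p = 3.3e-07). ILMN_1237886 had 7.15 and 7.14 in knockout and 11.47 and 11.03 in wild type, and ILMN_2951852 had 7.15 and 7.21 in knockout and 11.54 and 10.97 in wild type. The knockout level of each was at least 15.2-fold lower (limma adjusted p = 6.16e-08 for ILMN_1237886 and 5.39e-07 for ILMN_2951852). ILMN_2463259, detected on all 4 arrays, had 7.38 and 7.41 in knockout and 11.63 and 11.26 in wild type (log2 difference -4.05, limma adjusted p = 4e-08). With background subtraction by normexp the fitted log2 differences of these 10 probes were larger, from -4.67 for ILMN_1217767 to -7.77 for ILMN_3152486.

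**Figure D3:**
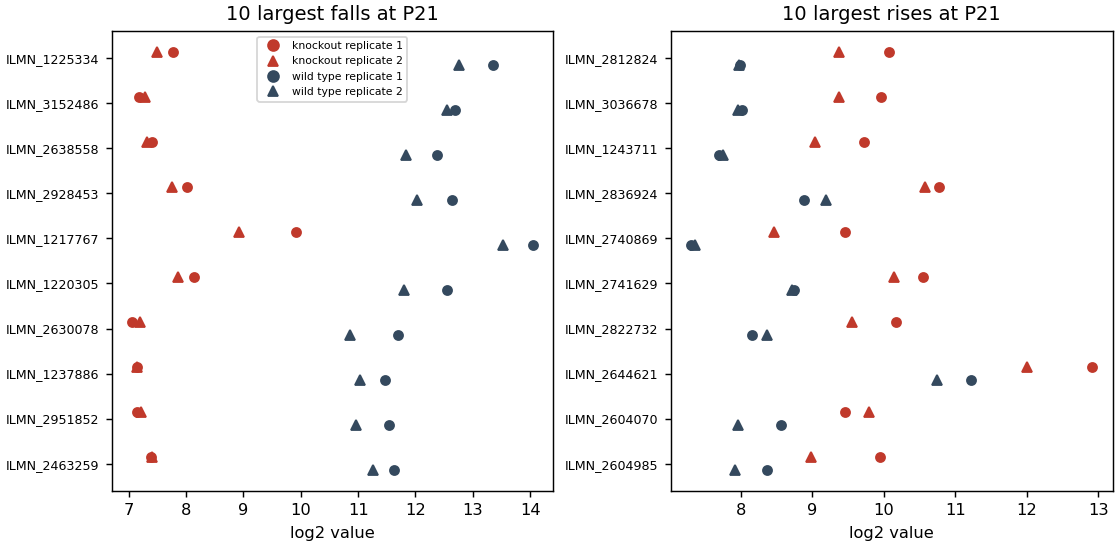
Log2 values on the 4 P21 arrays (horizontal axis) of the 10 probes with the largest falls (left) and the 10 with the largest rises (right), 1 probe per row, with circles for replicate 1 and triangles for replicate 2. At the left most knockout values lie near background, the highest being 9.92 for ILMN_1217767, and at the right the gaps between genotypes are far smaller.

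Among the lower probes, the 3 with the highest wild-type level were ILMN_2754746, ILMN_2795949 and ILMN_2697380. ILMN_2754746 had log2 values of 14.53 and 14.16 in knockout and 15.19 and 15.01 in wild type, a log2 difference of -0.75 (limma adjusted p = 0.00407). ILMN_2795949 had 14.06 and 14.12 in knockout and 14.88 and 14.66 in wild type, a log2 difference of -0.69 (limma adjusted p = 0.0184). ILMN_2697380 had 13.43 and 12.77 in knockout and 14.52 and 13.82 in wild type, a log2 difference of -1.07 (limma adjusted p = 0.0291). It was already detected at P15, with means of 8.85 in knockout and 9.19 in wild type, and both genotypes stood far above that at P21. These 3 calls depended on the arrays and settings. Without wild type replicate 1 the differences were -0.66, -0.58 and -0.73 in the order named, and none passed. ILMN_2795949 also missed the threshold without either knockout array (-0.66 and -0.72) and with normexp background (-0.69), and ILMN_2697380 without knockout replicate 2 (-0.74) and with array weights. With only the 4 P21 arrays fitted none of the 3 passed, and with 75th percentile scaling ILMN_2795949 (-0.59) and ILMN_2697380 (-0.95) did not. ILMN_2697380 also missed the threshold with normexp background from the control rows.

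The higher probes were mostly ones already detected in wild type and at P15. Of the 238, 232 were detected on both wild-type arrays and 4 on neither, against 13484 and 2033 of all 17355 tested probes. On all 4 P15 arrays 227 (95.4%) of the 238 were detected, against 72.5% of all tested probes. Of the lower probes 307 (48.7%) were detected on all 4 P15 arrays and 223 (35.4%) on none, against 10.4% of all tested probes on none.

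Among the probes that passed, ILMN_2812824 had the largest rise on this scale. Its log2 values were 10.08 and 9.36 in knockout testes (SD 0.5) and 7.98 and 7.97 in wild-type testes (SD 0.01). The log2 difference was 1.74 ± 0.19 (limma SE with spread shared over all 8 groups, n = 2 each, limma adjusted p = 0.000126) or 3.35-fold. At P15 ILMN_2812824 averaged 8.82 in knockout and 8.89 in wild type, between both P21 genotypes. ILMN_3036678 had log2 values of 9.96 and 9.37 in knockout and 8.01 and 7.95 in wild type (log2 difference 1.68, limma adjusted p = 6.11e-05). ILMN_1243711 had 9.72 and 9.04 in knockout and 7.69 and 7.74 in wild type (log2 difference 1.66, limma adjusted p = 0.000186). With normexp the differences of the 10 largest rises ran from 1.54 for ILMN_2644621 to 3.39 for ILMN_2740869. Of these 10, 8 no longer passed with only the 4 P21 arrays fitted, the exceptions being ILMN_2836924 and ILMN_2741629. In the 3 probes given here the wild-type arrays lay close together, while knockout replicate 1 stood clearly above knockout replicate 2.

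ILMN_2836924 had 10.76 and 10.58 in knockout and 8.88 and 9.18 in wild type (log2 difference 1.64, limma adjusted p = 0.00709). ILMN_2740869 had 9.45 and 8.47 in knockout and 7.30 and 7.35 in wild type, where it was detected on 1 of 2 arrays (log2 difference 1.64, limma adjusted p = 0.00303). ILMN_2741629 had 10.54 and 10.13 in knockout and 8.75 and 8.72 in wild type (log2 difference 1.61, limma adjusted p = 0.00015). Of these 3, ILMN_2740869 alone was not well above background in either genotype at P15, at 7.05 in knockout and 7.12 in wild type. ILMN_2836924 no longer passed without wild type replicate 1, with a difference of 1.49.

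ILMN_2822732 had 10.17 and 9.55 in knockout and 8.16 and 8.36 in wild type (log2 difference 1.60, limma adjusted p = 0.000619), and ILMN_2644621 had 12.92 and 12 in knockout and 11.22 and 10.74 in wild type (log2 difference 1.48, limma adjusted p = 0.00506). ILMN_2604070 had 9.46 and 9.79 in knockout and 8.56 and 7.96 in wild type (log2 difference 1.36, limma adjusted p = 0.0312). ILMN_2604985 had 9.94 and 8.98 in knockout and 8.36 and 7.92 in wild type (log2 difference 1.32, limma adjusted p = 0.0247). ILMN_2644621 and ILMN_2604985 were well below these levels at P15, at 7.86 and 7.22 in knockout and 7.95 and 7.14 in wild type, so both genotypes stood above P15 and the knockout further above. ILMN_2604070 missed the threshold without knockout replicate 1 (1.53), knockout replicate 2 (1.2) or wild type replicate 2 (1.06), with array weights, and with no filter on dim probes. ILMN_2604985 missed it without knockout replicate 1 (0.84), wild type replicate 1 (1.54) or wild type replicate 2 (1.10).

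Wild-type development without any P21 array gave a frame for both lists. Of the 2350 tested probes whose wild-type mean was higher at P60 than at P15 by a log2 difference of at least 1, 564 (24.0%) were lower at P21 in knockout and 8 higher, against 3.63% and 1.37% of all tested probes. Between P15 and P21 these probes had a median step of 0.47 in knockout and 1.16 in wild type. Their median P21 log2 difference was -0.35, and 1885 of them (80.2%) had a difference below 0. Of the 3071 probes lower at P60 by at least 1, 0 were lower at P21 in knockout (limma, 7 of them at an unadjusted p under 0.05) and 76 (2.47%) higher, and the median difference was 0.16. Among the remaining 11934, 66 (0.553%) were lower and 154 (1.29%) higher. Most of the lower probes, 564 of 630, were therefore ones that wild type gains by P60. Of the 238 higher probes, 76 (31.9%) were ones that wild type loses by P60, against 17.7% of all tested probes, and 154 (64.7%) changed by less than a log2 difference of 1, against 68.8%.

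The other ages show when each list separated. At P15, 0 of 17355 tested probes passed between genotypes by limma, and 195 had an unadjusted p under 0.05. With normexp background 2 probes passed at P15, and with array weights 1. The 630 lower probes had a median P15 log2 difference of -0.01, with 347 below 0 and 283 above. Of the 630, 223 (35.4%, against 10.4% of all tested probes) were detected on none of the P15 arrays. For those a P15 difference could hardly show. The 238 higher probes had a median P15 difference of -0.03, with 141 below 0 and 97 above. At P30 the median difference of the lower list was -1.82 and at P60 -2.16, against 0.12 for all tested probes at each of these ages. The higher list had medians of 0.83 at P30 and 0.85 at P60.

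In levels, the lower list had medians over probes of 7.43, 7.74, 8.08 and 8.06 at P15, P21, P30 and P60 in knockout, and 7.40, 9.72, 11.13 and 11.41 in wild type. The knockout median was above its P15 value at each later age, by little on this scale, where rises near background are understated. The wild-type median was higher at each age than at the one before. The higher list had medians of 9.52, 9.88, 9.87 and 9.90 in knockout and 9.53, 9.15, 8.93 and 8.85 in wild type. Since the P21 arrays chose the lists, the P21 values of this course are a description. P15, P30 and P60 entered the choice through the estimate of each probe's spread, the detection filter and the normalization over all arrays.

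**Figure D4:**
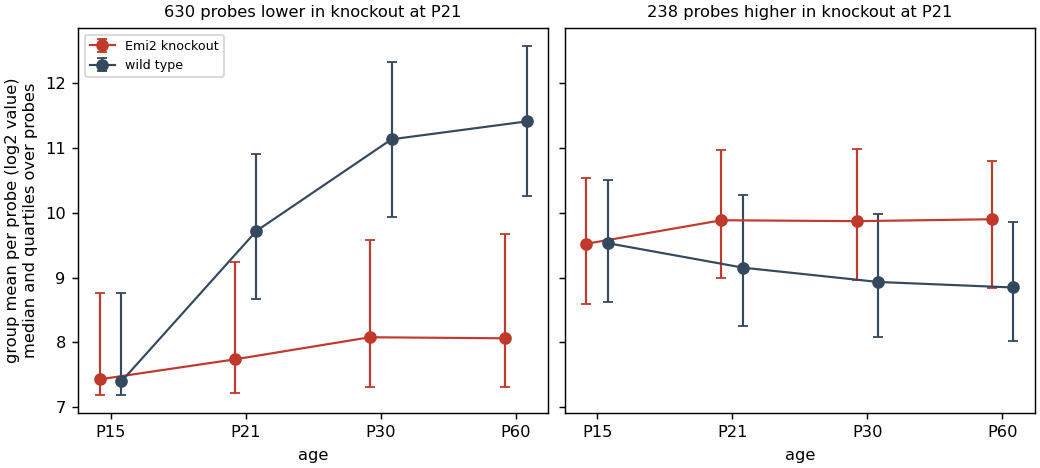
Median and quartiles, over probes, of the group mean log2 value (vertical axis) at each age (horizontal axis) for the 630 probes lower (left) and the 238 higher (right) in knockout at P21. At the left the wild-type median climbs to 11.41 at P60, while the knockout median goes from 7.43 at P15 to 8.06 at P60. At the right the genotypes part at P21 by less and stay apart.

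Most of the P21 differences were found again on later arrays. Of the 630 lower probes, 565 (89.7%) passed as lower at both P30 and P60 in the same limma model, where all tested probes did so in 9.96%. Taken singly, 10.4% of tested probes were lower at P30 and 14.5% at P60, and 14.5% were higher at P30 and 27.3% at P60, which together made 24.9% and 41.7%. Of the 238 higher probes, 196 (82.4%) passed as higher at both ages, against 12.1% of all tested probes. Neither P30 nor P60 passed for 33 of the lower and 22 of the higher probes, against 9620 of all 17355 tested probes. The tests of a probe at the different ages share 1 estimate of its spread, which favours such agreement. On the 4 later knockout arrays, 133 of the 630 lower probes were detected on none and 408 on all. On all 4 later wild-type arrays 628 were detected. Of all 17355 tested probes, 2145 were detected on none of the later knockout arrays and 11982 on all. On all 4 later wild-type arrays 11776 of all tested probes were detected.

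Whether the P21 difference was smaller than the later one was tested directly. The P21 difference was more negative than the P15 difference for 333 tested probes (1.92%) and more positive for 38 (0.219%), 2.14% together (limma interaction, adjusted over all probes). Against P30 it was more negative for 110 (0.634%) and more positive for 712 (4.1%), 4.74% together. Against P60 it was more negative for 1015 (5.85%) and more positive for 1276 (7.35%), 13.2% together. Of the 630 lower probes, 232 had a P21 difference more positive than at P30 and 5 one more negative, which the choice of the list by its P21 values affects. Among the 10 largest falls, ILMN_2463259 had a P21 log2 difference less negative than at P30 by 1.07 (limma adjusted p = 0.0141). It was detected on both P21 knockout arrays but near background, where a loss is understated. No deeper loss at P30 is read from it. The fitted interaction of ILMN_1237886 and ILMN_2951852 also passed, but their P21 knockout level was not well above background, so their P21 loss is a bound and is not ranked against the P30 loss. ILMN_2951852 averaged 7.18 at P21 and 7.56 at P30 in knockout, and 11.25 at P21 and 13.54 at P30 in wild type. Of the 10 largest rises, ILMN_3036678 was the one whose P21 difference passed as different from P30, with a P21 minus P30 value of -1.02 (limma adjusted p = 0.028).

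A few probes went the other way, with a genotype difference at P21 that was larger than at P30. Of the probes called at P21, 7 had a difference that passed this test and was smaller in size at P30, and the 5 largest are described. ILMN_1243507 had log2 values of 7.6 and 7.67 in knockout and 11.73 and 11.48 in wild type at P21, so that the difference was -3.97 on the log2 scale (limma adjusted p = 5.77e-08). At P30 it averaged 10.36 in knockout and 11.63 in wild type, a log2 difference of -1.27 (interaction, limma adjusted p = 2.57e-05). ILMN_1225521 had 9.99 and 9.54 in knockout and 13.75 and 13.01 in wild type at P21 (log2 difference -3.62), and at P30 the difference was -2.03 (interaction, limma adjusted p = 0.0185).

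In the other 3 of the 5 the sign of the difference was turned at P30. ILMN_2834777 had 8.27 and 8.19 in knockout and 10.34 and 10.73 in wild type at P21, so the log2 difference was -2.31 (limma adjusted p = 5.49e-06). At P30 the averages were 11.06 in knockout and 10.19 in wild type, so the difference was 0.87 (limma adjusted p = 0.00322). ILMN_2606088 had 10.41 and 10 in knockout and 11.90 and 12.28 in wild type at P21, a difference of -1.88 (limma adjusted p = 0.00021). At P30 it averaged 12.61 in knockout and 11.56 in wild type (1.05, limma adjusted p = 0.00396), and at P60 13.20 in knockout and 12.17 in wild type (1.03, limma adjusted p = 0.00281). In both probes the knockout average lay below wild type at P21 and above it at P30.

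ILMN_2702575 was the higher probe among the 5, with 8.85 and 9.27 in knockout and 7.91 and 8.07 in wild type at P21, a log2 difference of 1.07 (limma adjusted p = 0.00124), a call that was lost with only the 4 P21 arrays fitted. At P30 the difference was -0.42, which did not pass (limma adjusted p = 0.071). The P60 averages were 8.05 in knockout and 8.97 in wild type, with a difference of -0.92 there (limma adjusted p = 0.000682). Beyond these 5, ILMN_2819015 was higher in knockout at P21 by 0.60 (limma adjusted p = 0.0498) and lower at P30, with a difference of -0.74 (limma adjusted p = 0.00466), and ILMN_3163156 was lower at P21, with a difference of -0.55 (limma adjusted p = 0.032) and higher at P60 by 0.46 (limma adjusted p = 0.014). Those last 2 probes were chosen after their values were seen.

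**Figure D5:**
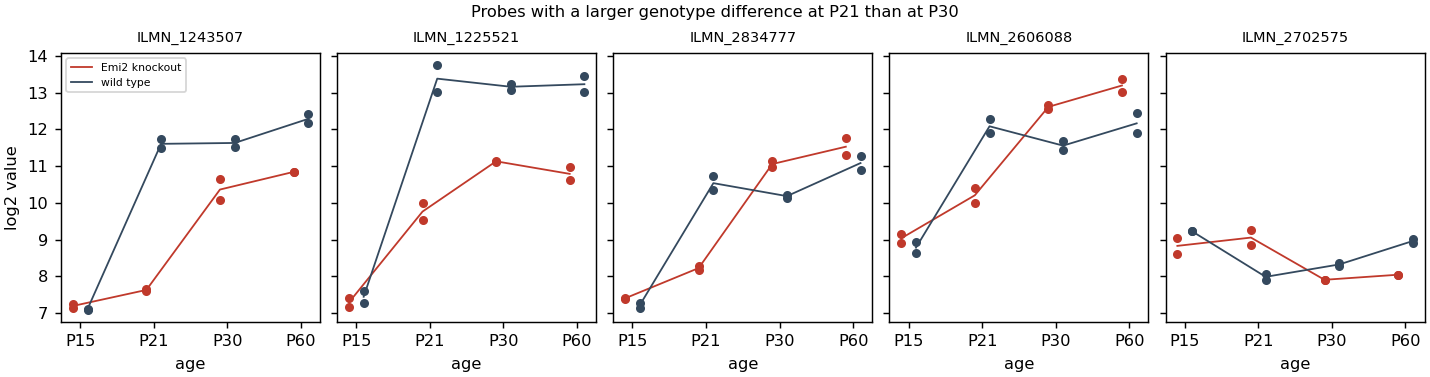
Log2 values of 5 probes (vertical axis) by age (horizontal axis), 1 panel per probe, with a point per array and a line through the group means. In the first 4 panels the knockout lies far below wild type at P21 and closer to it, or above it, at P30, and ILMN_2702575 is above wild type at P21 alone.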

How the data were processed

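Total RNA of whole testis was measured on 16 arrays in 8 groups of 2. The deposited signal intensity of each probe carries no normalization, per the file headers, and the deposited detection p-value beside it ran as 1 minus p in regular probes. The deposited log2 values follow from these intensities by quantile normalization over all rows without background correction, to within 0.00276, and the only tool in the submitters' processing notes is limma, with no version. Each column's median was 7.39, and scale and direction are known. The main values were these log2 values. Rows numbered ILMN_1343048 to ILMN_2038782, 822 in all, were dropped, 6 of them with a gene symbol. The probe table gave 1 symbol for 24272 of 25689 regular probes, none for 1417 and several for 0, and the symbols served only to check names.

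Group means were modelled with limma (version 3.58.1, R 4.3.3; 8 residual and 3.55 prior degrees of freedom), with Benjamini-Hochberg adjustment and a threshold of 0.05. The number of arrays limits the precision, and the median standard error of a P21 log2 difference was 0.145. In simulated data with known shifts, 88 of 100 of log2 size 1 and 100 of 100 of size 2 passed. Among the unshifted probes there were 10 false calls. The simulated noise was independent between arrays and drawn from the fitted spreads, so deviations shared between arrays were not covered. Where a probe was not well above background on both arrays of a genotype, the fold is a bound, set against the higher of the lowest detected value on each array and the probe's own. Named probes are the 10 largest falls and rises without overlap of groups, the 5 largest whose difference was smaller at P30, the 3 brightest lower probes, and those named Fbxo43 and Fbxo5. The comparison, lists and tests were chosen with earlier results of these data known. Alternatives covered background, scaling, filter, arrays fitted, weights, variance trend, probe choice and single arrays.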

Additional observations from a re-analysis of the deposited data

Results flagged for a closer look

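The genotype difference at P21 differed from that at the other ages by a direct limma interaction test. It was more negative than at P15 for 333 probes and more positive for 38, more negative than at P30 for 110 and more positive for 712, and more negative than at P60 for 1015 and more positive for 1276. Without wild type replicate 2 the P60 counts together were 1433 in place of 2291, and without wild type replicate 1 the P15 counts together were 235 in place of 371.

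Among the named probes, the P21 minus P30 difference on the log2 scale was -3.18 for ILMN_2834777, -2.93 for ILMN_2606088, -2.71 for ILMN_1243507 and -1.59 for ILMN_1225521, which were lower in P21 knockout by more than at P30 or lower at P21 alone. It was 1.07 for ILMN_2463259, which was near background in P21 knockout, so no deeper loss at P30 follows. The mean of that probe went from 11.44 at P21 to 13.17 at P30 in wild type and from 7.4 to 8.06 in knockout. The P21 minus P30 difference was fitted as 1.90 for ILMN_2951852 and 1.08 for ILMN_1237886. Their P21 knockout level was not well above background, so that their P21 loss is a bound and no order of the ages follows. It was 1.49 for ILMN_2702575, higher in P21 knockout, and -1.02 for ILMN_3036678, higher by more at P30. With 2 arrays per group, no array could be examined as an outlier of its group.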

How the results depend on the processing

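The 868 probes that passed at P21 were 190 with only the 4 P21 arrays (186 lower and 4 higher), 448 when the log2 difference also had to reach 1 in size (25 of them higher), and 1326 with the replicate block (443 higher). Leaving out each array in turn gave 393 to 898 probes, 349 to 729 lower and 44 to 340 higher, with the lowest values without wild type replicate 1. Probes higher numbered 146 and 142 with normexp background from detection p-values or control rows, 87 with array weights and 134 with an intensity trend. The cause of these shifts was not tested. Leaving out each array, the P15 interaction count ran from 235 to 477, the P30 count from 636 to 842 and the P60 count from 1433 to 2678.

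The labels share replicate numbers across groups without saying what a number marks. At P21 the deviations of replicate 1 from replicate 2 in knockout and wild type had a correlation of 0.608 across probes, against 0.0726 at P15, 0.0929 at P30 and 0.218 at P60, and with 2 pairs this does not establish a pairing. On the wild-type axis, wild type replicate 1 stood at 0.682 with P30 as the far end, and knockout replicate 1 at 0.516 without the probes called at P21 and at 0.550 over falling probes. Of 389 values of the 28 named probes under 14 alternatives, 356 kept direction and passed, 33 kept direction without passing and 0 reversed. The count of 0 reversed was largely fixed beforehand. Filter, probe choice, replicate block, array weights, intensity trend and fitting the P21 arrays alone left each log2 difference as it was. Where the groups do not overlap, leaving out 1 array cannot turn the sign. The named probes were also picked by their values on these same arrays, so the counts are only a description. The chip could not be used as a block, since column names give none.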

Other observations

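Probes that share a gene symbol in the probe table moved together to a limited degree. Among 5257 pairs of tested probes with the same symbol, the correlation across pairs was 0.124 for the P21 log2 difference and 0.162 for the P21 wild-type level, and pairs that share a symbol or an array are not independent. Of 350 partners of lower probes, 44 (12.6%) were also lower and 0 higher in knockout (limma), and of 152 partners of higher probes, 8 (5.26%) were also higher. Over all tested probes 3.63% were lower and 1.37% higher.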
